A study of Pantherophis guttatus with 6 samples.

Results

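Mitochondrial ribosomal proteins are made from nuclear genes, imported into the mitochondrion and assembled with RNAs of the mitochondrial genome into the ribosome that translates the few messages encoded there. The genes described here are the rows of the count table whose name is MRPL (large subunit) or MRPS (small subunit) followed by a number. This rule found 79 of the 25731 genes used, of which 50 carry an MRPL and 29 an MRPS name. Large and small subunit genes below are told apart by this name alone. A plain symbol was carried by 71 of them and a name ending in "-like" by 8, and together they covered 73 different symbols. The question asked is whether these genes differed in embryonic skin between hypomelanistic and wild-type corn snakes.

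Each of 6 libraries held poly(A) RNA of dorsal skin from 1 embryo of Pantherophis guttatus, taken at embryonic day 40, with 3 libraries labelled Homozygous Hypomelanistic (mh/mh in the study) and 3 labelled WT (+/+). Hypomelanistic corn snakes are a captive-bred morph with less melanin than the wild-type. The study describes a single clutch of 2 heterozygous parents, so every library is another embryo of the same family, while sex and batch are absent from the labels. Whole skin is a mixture, in which fewer cells of a type and less RNA per cell cannot be told apart.

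The mitochondrial ribosome is built in a large subunit, which joins amino acids and releases the new protein, and a small subunit, which reads the message. Its products are core subunits of the respiratory chain and of the ATP synthase, so it is known mainly for its part in oxidative phosphorylation. In human, inherited defects in several of its proteins (*MRPS2*, *MRPS7*, *MRPS16*, *MRPS22*, *MRPS34*, *MRPL3*, *MRPL12* and *MRPL44* among them) cause combined deficiencies of the respiratory chain.

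Total counts lay between 29958657 and 38541392 per library. *TYR*, the tyrosinase gene whose product starts melanin synthesis, was read first to check the matching of columns to labels, not the genotypes. It had 4.78, 5.13 and 5.01 CPM (its counts relative to the TMM-scaled total of the library) in hypomelanistic libraries 1, 2 and 3 and 42.6, 34.5 and 34.5 CPM in wild-type libraries 1, 2 and 3. The groups were far apart, with a log2 fold change of -2.90 ± 0.115 (SE) and an adjusted p of 0.000415 in edgeR's quasi-likelihood test with Benjamini-Hochberg adjustment. Genes annotated as ribosomal RNA took 10.2% to 13.5% of counts in the hypomelanistic and 7.39% to 8.83% in the wild-type libraries, and leaving them out before scaling gave no call among the mitochondrial ribosomal protein genes. Of 9 lists of cell type markers, *TYR* was the only gene called, by edgeR and by DESeq2. Summed skeletal muscle markers ranged from 484 to 1746 CPM in the hypomelanistic and from 569 to 1846 CPM in the wild-type libraries, so the groups overlapped. Fibroblast markers were lower in the hypomelanistic group in 8 of 8 genes, with a median of -0.23 (-0.18 without hypomelanistic 1). Of these markers 0 were called by edgeR or DESeq2, and 2 (25%, against 5.63% of all tested genes) had an unadjusted edgeR p under 0.05. The summed fibroblast level was 98400 to 119000 CPM against 112400 to 115400 CPM, and the part of these markers in the results below was not tested.

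Hypomelanistic 1 stood apart from the other 5 libraries. On the first principal component of the 500 most variable genes, which held 35.9% of their variance, it scored 32.62, while the others lay between -11.19 and 1.578. Its genes of 1 chromosome were high. The 1393 tested genes placed on chromosome 4 of a newer corn snake assembly had a median level 1.54 times the mean of the other libraries, against 0.977 times for 14159 genes on other chromosomes. That chromosome also holds *WAC* and *CTNNB1*, which are Z-linked in colubrid snakes, and the part of embryo sex in these values was not tested. It carries 9 of the mitochondrial ribosomal protein genes, so the results that rest on this library are given with and without it.

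Mitochondrial ribosomal protein genes were expressed above the median gene. Per kilobase of counted length, the large subunit genes had a median of 14.6 CPM per kilobase and the small subunit genes 15.9, while all tested genes had 4.43. Above that value lay 47 of 50 tested large subunit genes and 27 of 28 tested small subunit genes. Their summed share of all counts was 0.158% to 0.171% in every library, with no gap between the genotypes.

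The highest level per kilobase belonged to *MRPS15*, at 92.6 CPM per kilobase over the 6 libraries, a small subunit protein whose relatives in bacteria bind the ribosomal RNA early in assembly. *MRPL28* followed at 65.1, *MRPL18* at 46, *MRPS18B* at 43.6, *MRPL17* at 43.1 and *MRPS24* at 39.7 CPM per kilobase. The lowest of the large subunit were *MRPL39* with 1.76 and the *MRPL3-like* gene LOC132710825 with 3.33 CPM per kilobase, and of the small subunit *MRPS27* with 2.87 and *MRPS6* with 4.51. *MRPL39* and *MRPS27* have long annotated transcripts, of 13734 and 7145 counted bases, against 429 bases for LOC132710825. Before division by length, *MRPL39* had 21.9 to 26.9 CPM, more than most members with a higher level per kilobase.

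**Figure D1:**
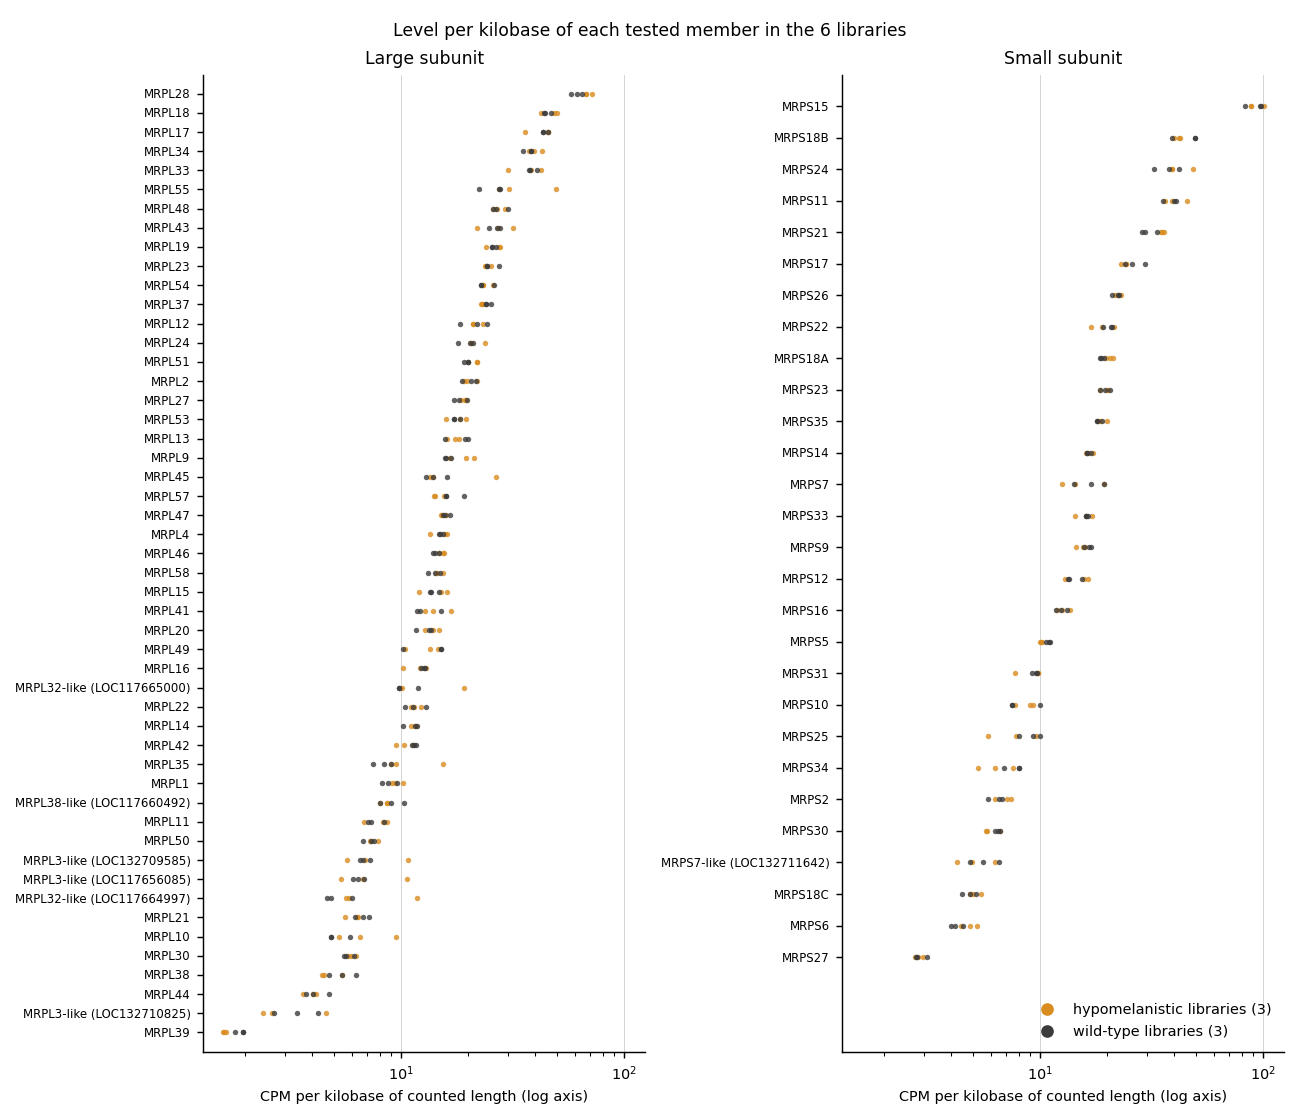
Level of each tested mitochondrial ribosomal protein gene in the 6 libraries, in CPM per kilobase of counted length on a log axis, large subunit on the left and small subunit on the right. Each point is 1 library, hypomelanistic in orange and wild-type in dark grey. Levels run from 1.76 (*MRPL39*, mean of the 6 libraries) to 92.6 (*MRPS15*), and for most genes the points of both genotypes lie on top of each other.

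Between the genotypes, no mitochondrial ribosomal protein gene was called different. The filter on low counts kept 50 of 50 large and 28 of 29 small subunit genes, and 0 of these 78 had an edgeR adjusted p under 0.05 (the lowest was 0.828), in a fit that called 4 of 17025 genes, or 0.0235%. DESeq2's Wald test, the tool of the study, likewise called 0 of the 78, with a lowest adjusted p of 0.748, and called 0.475% of all genes. Before adjustment, 2 of the 78 had an edgeR p under 0.05, as had 5.63% of all tested genes, and 3 had one in DESeq2, as had 5.18% of the genes DESeq2 adjusted. These shares are no larger than the background.

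Fitted differences were small in both directions. Large subunit genes had a median log2 fold change of 0.03, with 32 higher and 18 lower in hypomelanistic skin and a range from -0.24 to 0.59. With all libraries, small subunit genes were 14 higher and 14 lower, with a median of 0.00 and a range from -0.26 to 0.21. Across all tested genes the median was 0.00 and the quartiles were -0.10 and 0.12. The median SE was 0.106 for the large and 0.102 for the small subunit, against 0.135 for all genes, so these genes were measured a little more tightly than most.

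How far the data bound a difference can be read from the 95% intervals. For 62 of the 78 genes the whole interval lay within ±0.5 on the log2 scale, and for 77 within ±1. The gene whose interval passed 1 was the *MRPL32-like* gene LOC117664997, which lies on chromosome 4. A p above the threshold does not show that these genes were equal. With all 6 libraries, a 2-fold difference in either direction lay outside the interval of all but that gene. Intervals were read from this fit only. Without hypomelanistic 1, LOC117664997 stood at 0.16 ± 0.155 (SE) and the *MRPL3-like* gene LOC132710825 at -0.45 ± 0.291, so the bound does not carry over to that fit.

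**Figure D2:**
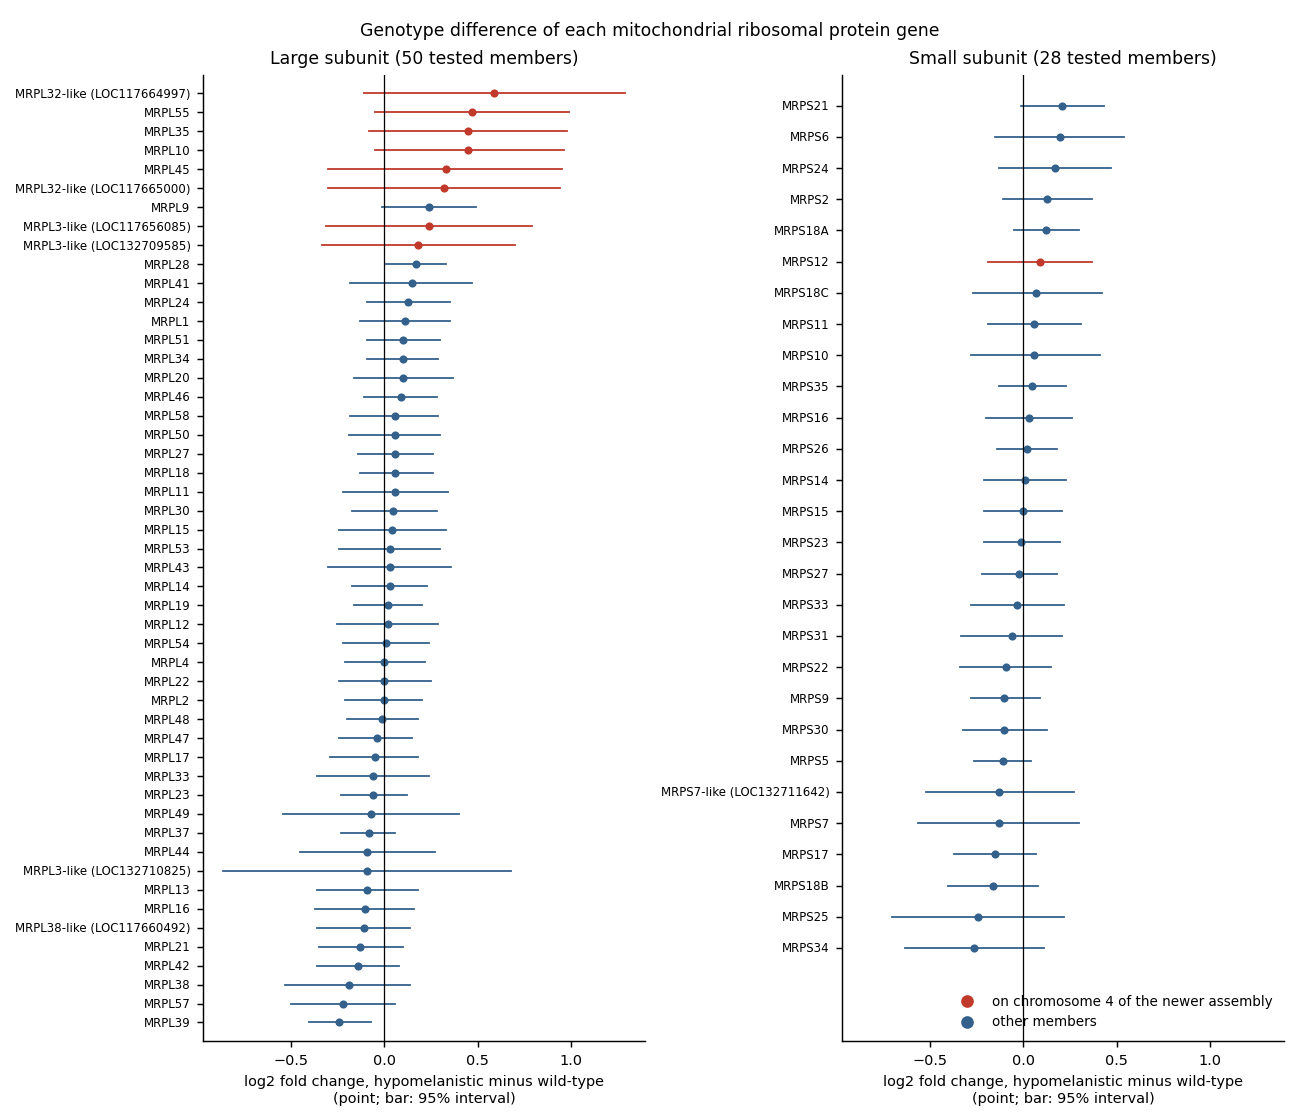
Log2 fold change (hypomelanistic minus wild-type) of the 78 tested mitochondrial ribosomal protein genes, sorted within each subunit, with points for the edgeR estimate and bars for the 95% interval. Genes on chromosome 4 of the newer assembly are in red. Most intervals cross 0 and lie within ±0.5, and the upper end of the large subunit is made up almost wholly of red points with wide bars.

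Without hypomelanistic 1, 0 of the 78 genes were called, while edgeR called 10 of 17238 genes (0.058%). An unadjusted p under 0.05 was then found for 3 of the 78 genes and for 5.97% of all genes. The medians were 0.04 for the large and 0.03 for the small subunit. Large subunit genes were then 29 higher and 21 lower, and small subunit genes 18 higher and 10 lower. Of all 17238 genes, 8592 were higher and 8646 lower.

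The members on chromosome 4 stood apart from the other members. All 9 were higher in the hypomelanistic group, the median log2 fold change was 0.33, and in all 9 hypomelanistic 1 was the highest of the 6 libraries. Of the 69 members elsewhere, hypomelanistic 1 was highest in 6 and lowest in 23 (33.3%, against 24.2% of tested genes on other chromosomes). Among all tested genes it was highest in 71.7% on chromosome 4 and in 18% on other chromosomes. Over all tested genes of chromosome 4, 1149 of 1393 were higher in the hypomelanistic group, the median log2 fold change was 0.23, and 0 were called by edgeR (62 had an unadjusted p under 0.05).

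*MRPL10*, which anchors the stalk that recruits translation factors to the large subunit, had 20.7, 14.4 and 11.6 CPM in hypomelanistic and 10.6, 10.6 and 12.9 CPM in wild-type libraries. Its high value was that of hypomelanistic 1, and the remaining libraries of both groups overlapped. The log2 fold change was 0.45 ± 0.214 (SE, edgeR adjusted p = 0.828) and 0.19 without hypomelanistic 1.

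*MRPL55*, a protein found in the mitochondrial but not in the bacterial large subunit, had 36.3, 20.2 and 22.5 CPM against 20.2, 16.5 and 20.4 CPM. The pattern was the same, with 1 high library, and its log2 fold change of 0.47 became 0.16 without it. *MRPL45*, which in human tethers the ribosome to the inner membrane, had 31.4, 16.3 and 15.8 CPM against 15.3, 16.3 and 19 CPM. Here the other hypomelanistic libraries lay inside the wild-type range, and the log2 fold change turned from 0.33 to -0.07.

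*MRPL35*, a large subunit protein, had 10.7, 6.54 and 6.25 CPM against 5.82, 5.16 and 6.25 CPM. Its groups did not overlap, but hypomelanistic 3 and wild-type 3 were equal to the digits given. Its log2 fold change was 0.45, and 0.16 without hypomelanistic 1.

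The pair of *MRPL32-like* genes lies side by side on 1 scaffold, 24293 bases apart and on the same strand. *MRPL32* is known in yeast and mouse as a protein that the inner membrane protease must cut before it can join the large subunit. LOC117664997 had 15.1, 7.52 and 7.23 CPM against 5.94, 6.19 and 7.71 CPM, with the largest log2 fold change of all members (0.59 ± 0.298, edgeR adjusted p = 0.828; 0.16 without hypomelanistic 1). LOC117665000 had 19.3, 10.2 and 9.99 CPM against 9.83, 9.84 and 12 CPM. In both genes hypomelanistic 1 was far above every other library, at 2.18 and 1.86 times the mean of the other 5.

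The *MRPL3-like* genes LOC117656085 and LOC132709585 were close to each other in every library. They have 2270 and 2271 counted bases and 10 exon entries each. Whether they are 1 gene, which the 9 members would then hold more than once, was not tested. *MRPL3* lies near the centre of the subunit where peptide bonds form. LOC117656085 had 24.1, 15.3 and 12.2 CPM against 13.8, 15.4 and 14.5 CPM, and LOC132709585 had 24.3, 15.7 and 13 CPM against 14.9, 16.5 and 15.3 CPM. For the first of these the newer assembly has no entry, and it was placed by its scaffold. Of the genes of that scaffold found in the newer assembly, 99.8% lie on chromosome 4.

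*MRPS12*, the small subunit protein known for the accuracy of decoding, was the odd one of the 9. It had 18.4, 14.5 and 17.7 CPM against 17.4, 15.1 and 15 CPM, and hypomelanistic 1 was only 1.15 times the mean of the other libraries. On its scaffold, the 26 tested genes had a median log2 ratio of hypomelanistic 1 to the others of -0.07. This ratio was 0.74, 0.70 and 0.86 on the scaffolds of LOC117656085, *MRPL10* and *MRPL55*. It was 0.39 on that of LOC132709585, where 36.6% of the genes found in the newer assembly lie on chromosome 4. The excess of hypomelanistic 1 was thus not shared by all scaffolds of chromosome 4.

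**Figure D3:**
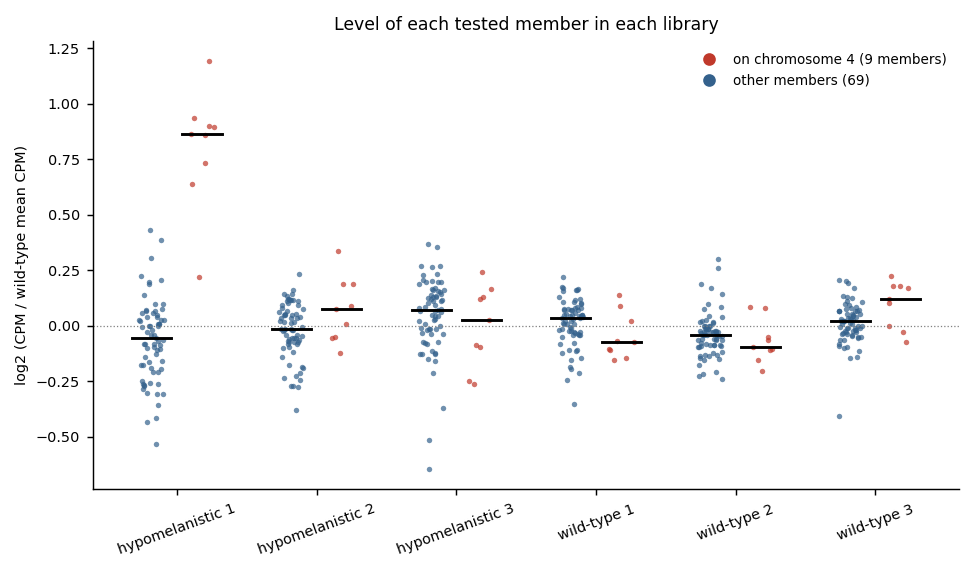
Log2 ratio of each tested member's CPM to its wild-type mean, by library. Blue points are the 69 members elsewhere, red points the 9 members on chromosome 4, and black bars the medians. In hypomelanistic 1 alone, the red points other than *MRPS12* stand clear of the blue ones. There, 8 of the 9 were 1.61 to 2.18 times the mean of the other 5 libraries.

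Spread within groups showed the same split. The within-group SD of log2 CPM had a median of 0.106 for the 69 members elsewhere and 0.341 for the 9 members on chromosome 4, which became 0.148 when hypomelanistic 1 was left out. Without this library, 5 of the 9 were higher and 4 lower in the hypomelanistic group, with a median of 0.03.

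**Figure D4:**
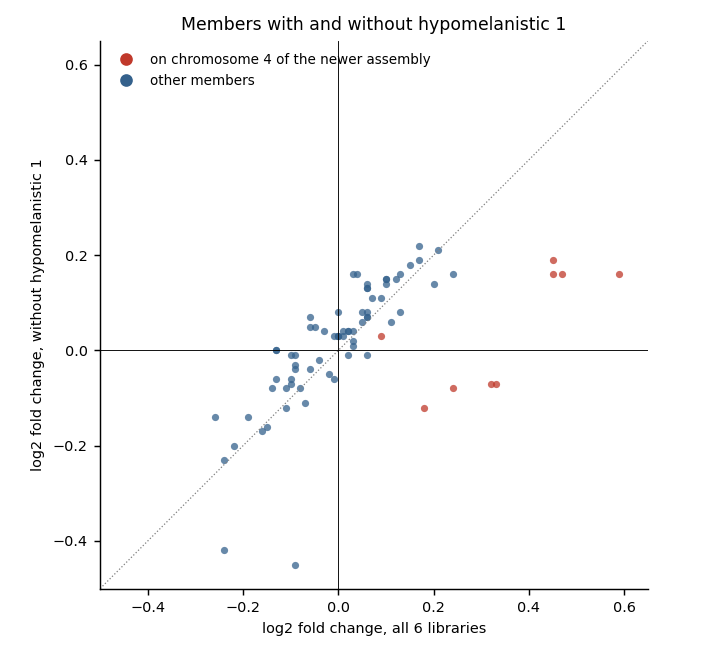
Log2 fold change of each tested member with all 6 libraries (horizontal) and without hypomelanistic 1 (vertical), with a dotted line of equal values. Most blue points lie near the line, apart from *MRPL3-like* LOC132710825 (-0.09 to -0.45) and *MRPS25* (-0.24 to -0.42), and the 9 red points of chromosome 4 drop from a median of 0.33 to 0.03.

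Away from chromosome 4, the 42 large subunit genes had a median log2 fold change of 0.02 (24 higher, 18 lower, range -0.24 to 0.24) and the 27 small subunit genes one of -0.01 (13 higher, 14 lower). The genotype groups did not overlap in 8 of all 78 genes, 4 of them higher in every hypomelanistic library (*MRPL28*, *MRPL35*, *MRPS18A* and *MRPS21*) and 4 lower (*MRPL39*, *MRPL57*, *MRPL37* and *MRPS5*). Among all tested genes 5.77% were higher and 6.39% lower in this sense, so the members were close to the background in both directions.

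*MRPL39*, a large subunit protein that resembles a threonyl-tRNA synthetase, had the smallest p of all members. It had 21.9, 22.1 and 22.6 CPM in hypomelanistic and 24.8, 26.9 and 26.7 CPM in wild-type libraries. The groups were tight and apart, with a log2 fold change of -0.24 ± 0.0714 (SE, 95% interval -0.40 to -0.07), an unadjusted p of 0.0122 and an adjusted p of 0.828 in edgeR. It did not depend on hypomelanistic 1, without which the log2 fold change was -0.23.

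*MRPL28*, one of the most highly expressed members, had 67.3, 67.5 and 71.5 CPM against 64.7, 57.4 and 61.1 CPM. All hypomelanistic libraries were above all wild-type ones, by a log2 fold change of 0.17 ± 0.0676 (SE) with an unadjusted p of 0.0377 in edgeR, and 0.19 without hypomelanistic 1. *MRPL9*, a large subunit protein whose bacterial relative binds ribosomal RNA, had 21.6, 16.9 and 19.9 CPM against 17.1, 16 and 16.3 CPM. Its groups overlapped, since hypomelanistic 2 lay between wild-type libraries, and its log2 fold change was 0.24 with all libraries and 0.16 without hypomelanistic 1.

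*MRPL38*, a mitochondrion-specific protein, was among the lowest at a log2 fold change of -0.19 ± 0.141 (SE), and its groups overlapped. The value was -0.14 without hypomelanistic 1 and -0.08 without wild-type 3. *MRPL37*, another mitochondrion-specific protein, had 35, 34.6 and 35.2 CPM against 36.3, 36.3 and 38.4 CPM, with the smallest SE of the members at 0.0629. The groups were apart by a log2 fold change of only -0.08. Up to 131 of its 1514 counted bases are shared with a gene on the other strand, LOC117664264.

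The best known large subunit proteins differed little. *MRPL12*, the stalk protein, had 19.6, 21.7 and 19.5 CPM against 22.5, 17.1 and 20.3 CPM, a log2 fold change of 0.02. *MRPL11*, at the base of the stalk, stood at 0.06, *MRPL44*, which has a fold like that of ribonuclease III, at -0.09, and *MRPL58*, a peptidyl-tRNA hydrolase built into the large subunit, at 0.06. *MRPL17* and *MRPL18*, both highly expressed, stood at -0.05 and 0.06. In each of these genes the groups overlapped.

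Small subunit genes were led by *MRPS21*, with 15.7, 16 and 15.5 CPM in hypomelanistic and 14.9, 13.2 and 12.7 CPM in wild-type libraries. The groups were apart by a log2 fold change of 0.21 ± 0.0946 (SE) with an unadjusted p of 0.0598 in edgeR, and the fold change was the same without hypomelanistic 1. *MRPS5*, whose bacterial relative takes part in decoding, had 27.6, 27.4 and 27.3 CPM against 29.9, 30.1 and 29 CPM. Its libraries were among the tightest, and its log2 fold change was -0.11 ± 0.064 (SE), or -0.12 without hypomelanistic 1.

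*MRPS18A*, *MRPS18B* and *MRPS18C* are related proteins descended from 1 bacterial ribosomal protein, and in human the first sits in the large subunit in spite of its name. *MRPS18A* had 20.1, 20.9 and 21.6 CPM against 19.1, 18.9 and 19.6 CPM, with all hypomelanistic libraries higher and a log2 fold change of 0.12 (0.15 without hypomelanistic 1). *MRPS18B* had 49.5, 47.1 and 50 CPM against 58.8, 46.2 and 58.8 CPM, a log2 fold change of -0.16 with overlapping groups (-0.17 without hypomelanistic 1). *MRPS18C*, the lowest of the 3, had 3.73 to 4.18 CPM against 3.46 to 4 CPM. The family thus held differences of both signs, none past the threshold, and 456 of the 773 counted bases of *MRPS18C* are shared with *ABRAXAS1* on the other strand, so its level is uncertain.

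*MRPS34* had 6.35, 7.58 and 9.07 CPM against 9.63, 8.29 and 9.62 CPM. Its log2 fold change was -0.26 ± 0.156 (SE) with overlapping groups, -0.14 without hypomelanistic 1 and -0.40 without hypomelanistic 3. *MRPS25* had 8.39, 6.83 and 5.12 CPM against 8.16, 7.07 and 8.79 CPM. Hypomelanistic 2 and hypomelanistic 3 were below every wild-type library, and hypomelanistic 1 was not. The log2 fold change of *MRPS25* was -0.24, and -0.42 without hypomelanistic 1 (unadjusted p = 0.0469, adjusted p = 0.817 in edgeR). *MRPS17* stood at -0.15 and *MRPS24* at 0.17, both with overlapping groups.

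Other small subunit proteins of known disease genes lay nearer 0. *MRPS22* had a log2 fold change of -0.09, *MRPS16* 0.03 and *MRPS2* 0.13, all with overlapping groups. *MRPS16* shares 248 of its 1134 counted bases with a gene on the other strand. *MRPS15* and *MRPS27*, the highest and the lowest small subunit genes per kilobase, stood at 0.00 and -0.02.

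The scaffold that carries *TYR* also holds *MRPL57*, *MRPL39* and *MRPS6*, at 11.3, 38.9 and 41.8 Mb from it. All embryos came from 1 cross, so what is inherited with the *TYR* region cannot be told apart from the genotype. Whether genes at these distances were inherited with *TYR* in these embryos was not tested. In the newer assembly *TYR* lies on chromosome 5, which also holds *MRPS9*, *MRPL30* and *MRPL48* from other scaffolds. Their log2 fold changes were -0.10, 0.05 and -0.01, all with overlapping groups. *MRPL57*, a short large subunit protein, had 8.51, 8.37 and 9.26 CPM against 11.4, 9.45 and 9.53 CPM. Like *MRPL39* it was lower in every hypomelanistic library, by a log2 fold change of -0.22 ± 0.119 (SE) with an unadjusted p of 0.111 in edgeR. The value was -0.20 without hypomelanistic 1 and -0.12 without wild-type 1, its highest library. *MRPS6* had 4.72, 4.03 and 4.41 CPM against 4.09, 3.61 and 3.77 CPM, a difference of the other sign (0.20 ± 0.146) with overlapping groups, and 114 of its 910 counted bases are shared with *SLC5A3* on the same strand. In the CU assembly used by the files, *MRPL57* lies at NW_026844016.1:14512076-14514332, *MRPL39* at NW_026844016.1:42125289-42189813 and *TYR* at NW_026844016.1:3163719-3235830.

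Several symbols occur on more than 1 row, and reads of near-identical copies may have been split or lost when uniquely mapped pairs were counted. Summed over its 3 rows, *MRPL3* had 50.4, 32.1 and 26.2 CPM in hypomelanistic and 29.8, 33.7 and 31.2 CPM in wild-type libraries. The third row, LOC132710825, lay at 1.03 to 1.98 CPM and had the largest SE of all members, 0.328. *MRPL32*, summed over its pair, had 34.4, 17.7 and 17.2 CPM against 15.8, 16 and 19.7 CPM. Summing thus left both with 1 high library, and the log2 ratios of the group means without it were -0.11 and 0.02.

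*MRPL38* and *MRPS7* occur as a pair on 2 scaffolds, 1063365 bases apart on 1 and 1069289 bases apart on the other, where they are named "-like". The newer assembly holds each gene once, while the counts of members given above take each row on its own. With all libraries the rows stood at -0.19 and -0.11 for *MRPL38* and at -0.13 and -0.13 for *MRPS7*. Each of these genes thus entered the counts of lower members on both rows. Summed over both rows, *MRPL38* had 27, 28.5 and 30.3 CPM against 27.7, 31.2 and 35.9 CPM, and *MRPS7* had 31.7, 36.8 and 48 CPM against 36.4, 42 and 49 CPM. The first row held 34.3% to 38.5% of the sum for *MRPL38* and 44.6% to 46.1% for *MRPS7*, in all libraries, and the groups overlapped for both. *MRPS21-like* (LOC117660902), which the filter removed, had 3, 0 and 2 counts in hypomelanistic and 0 in each wild-type library, and the newer assembly lists it as a pseudogene.

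*MRPL46* and *MRPS11* lie head to head, 508 bases apart on opposite strands, and are the closest pair of members. *MRPL46* had 15.2 to 15.9 CPM in hypomelanistic and 14.3 to 15.2 CPM in wild-type libraries, and *MRPS11* had 31.1 to 39.2 against 30.6 to 35 CPM. Their log2 fold changes were 0.09 and 0.06, both with overlapping groups. *MRPL48* had the highest CPM of all members, from 121 to 140 over the 6 libraries, with a log2 fold change of -0.01.

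Other genes of mitochondrial translation were read from lists of known function. The mitochondrial ribosomal proteins without an MRPL or MRPS name (5 tested, among them *DAP3*, a GTP-binding protein of the small subunit) were 4 higher and 1 lower, at a median of 0.13 (log2 fold change), and 0 were called. Those with the smallest p were *AURKAIP1* (0.24) and *PTCD3* (0.30). *PTCD3*, on chromosome 4, was again high in hypomelanistic 1 (11.1 CPM, others 5.65 to 6.77 CPM) and stood at -0.04 without it. *GADD45GIP1* and *CHCHD1*, both counted in the tally of signs, stood at 0.00. Mitochondrial aminoacyl-tRNA synthetases and their partners (18 tested) were 5 higher and 13 lower with a median of -0.03, transcription, replication and RNA upkeep genes (17 tested) 5 higher and 12 lower with a median of -0.05, and regulators of mitochondrial biogenesis (9 tested) 4 higher and 5 lower with a median of -0.01. Without hypomelanistic 1 the medians of these 4 lists were 0.07, -0.04, -0.03 and 0.02. In these 4 lists edgeR and DESeq2 called 0 genes. An unadjusted edgeR p under 0.05 was found for 2, against 5.63% of all tested genes. These were *SARS2* among the synthetases (5.56% of its list) and *NRF1* among the regulators (11.1%). *SARS2* had a log2 fold change of 0.29 with an unadjusted p of 0.0262 and an adjusted p of 0.828 in edgeR. Also named by smallest p were *GATB* (-0.15), *LRPPRC* (-0.15), *POLG* (-0.29) and *MYC* (-0.13), lower in the hypomelanistic group. *NRF1*, a transcription factor for many nuclear genes of mitochondrial proteins, had 15.3, 14.6 and 16.6 CPM against 13.5, 11.9 and 13.5 CPM, a log2 fold change of 0.25. Its unadjusted p was 0.0379 and its adjusted p 0.828 in edgeR.

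The assembly factors of the mitochondrial ribosome (29 tested) were 16 higher and 13 lower, with a median of 0.02 (0.03 without hypomelanistic 1). By edgeR or DESeq2 0 were called, and 4 (13.8%, against 5.63% of all tested genes) had an unadjusted edgeR p under 0.05. Of these 4, *METTL17*, *DHX30* and *GTPBP10* lie on chromosome 4. *METTL17* had 19.9, 7.96 and 9.2 CPM against 6.08, 5.55 and 8.31 CPM. Its log2 fold change, the largest of the list, was 0.89, and 0.37 without hypomelanistic 1. *DHX30* had 62.2, 38.1 and 40.3 CPM against 37.4, 33.5 and 31.7 CPM, with log2 fold changes of 0.46 and 0.20. *GTPBP10*, a GTPase of large subunit assembly, had 9.24, 7.05 and 6.96 CPM against 4.81, 5.71 and 6.01 CPM, with a log2 fold change of 0.49 that was 0.35 without hypomelanistic 1. *ERAL1*, which protects the RNA of the small subunit while it is assembled, had 25.4, 24.3 and 26.6 CPM against 23.1, 19.1 and 22 CPM. Its log2 fold change was 0.25 with or without hypomelanistic 1. In 3 genes of the list (10.3%, against 5.77% of all tested genes) every hypomelanistic library was the higher. These were *GTPBP10*, *DHX30* and *ERAL1*. In 1 gene every hypomelanistic library was the lower, as in 6.39% of all tested genes.

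*MTIF3*, the initiation factor that readies the small subunit for a message, was the only gene of these lists whose call depended on the test. It had 4.63, 5.38 and 4.52 CPM in hypomelanistic and 7.72, 7.74 and 8.34 CPM in wild-type libraries. The groups were well apart, with a log2 fold change of -0.71 ± 0.127 (SE, -0.68 without hypomelanistic 1). DESeq2 called it (adjusted p = 0.00621) and edgeR did not (adjusted p = 0.373). *MTIF3* lies on the scaffold of *TYR*, 13.2 Mb from it. The other 14 tested translation factors were called by neither tool, with a median of -0.03 over all 15. *MTRFR* had the next smallest p, at a log2 fold change of 0.23 with overlapping groups.

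Cytosolic ribosomal proteins (75 tested, 11 of them on chromosome 4) were 60 higher and 15 lower, and all tested genes 8691 higher and 8334 lower. *RPSA* and *RPS15* each occur on more than 1 row of this list. Their median was 0.06 on the log2 scale, and 1 was called, an *RPL35A-like* gene (0.0235% of all tested genes were called by edgeR). An unadjusted edgeR p under 0.05 was found for 2 (2.67%, against 5.63% of all tested genes), the *RPL35A-like* gene and *RPS9* (0.25, on chromosome 4). Nuclear genes of oxidative phosphorylation (75 tested) were 53 higher and 22 lower with a median of 0.06, and 0 were called by edgeR, where 10 (13.3%, against 5.63% of all tested genes) had an unadjusted p under 0.05, or by DESeq2. In 12 of these 75 genes (16%, against 5.77%) every hypomelanistic library was the higher. In 2 of them every hypomelanistic library was the lower, as in 6.39% of all tested genes. On chromosome 4 were placed 4 of the 75. *ATP5F1D* (0.23) and *NDUFV3* (-0.32) had the smallest p of this list. Without hypomelanistic 1 the medians of the cytosolic and the oxidative phosphorylation list were 0.12 and 0.13. The large and small subunit genes of the mitochondrial ribosome, at medians of 0.03 and 0.00 (0.04 and 0.03 without hypomelanistic 1), lay below both lists, and no difference between lists was tested.

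**Figure D5:**
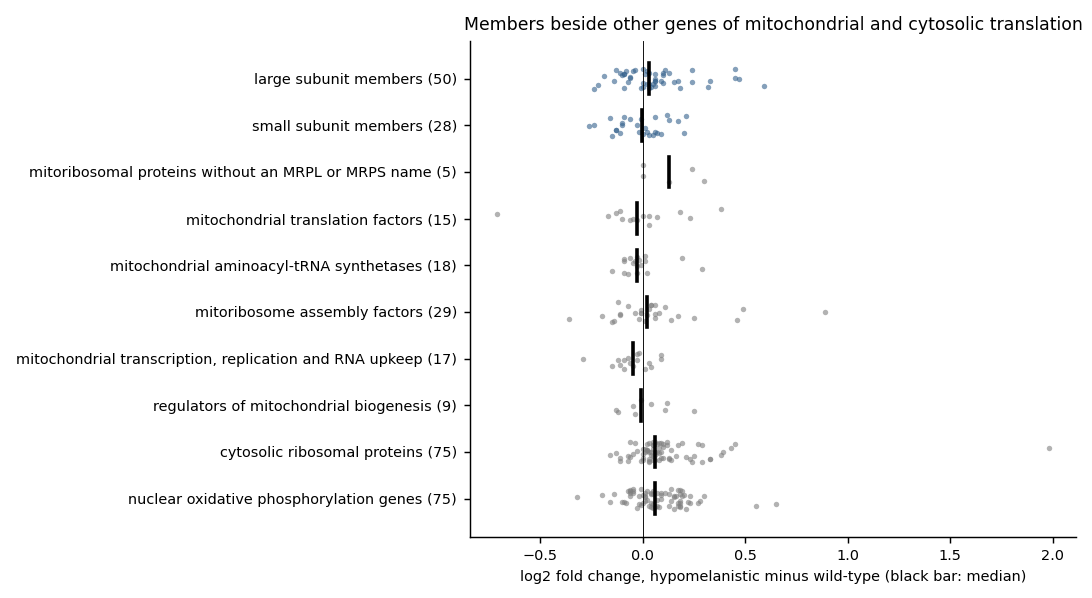
Log2 fold change (hypomelanistic minus wild-type) of each tested gene of both subunits of the mitochondrial ribosome and of 8 lists of related genes, with the number of genes in brackets and black bars for the medians. Medians lie between -0.05 and 0.13. The single point near 2 is the *RPL35A-like* gene, and the point at -0.71 is *MTIF3*.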

How the data were processed

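Libraries of poly(A) RNA were made by the authors with a stranded mRNA kit, aligned to the CU assembly with STAR 2.7.10b and counted per gene from uniquely mapped pairs (featureCounts, Subread 2.0.6). No source used here gives the strand setting, so overlapping genes are uncertain. The authors deposited raw counts. Of 25735 lines, 4 were broken, and the 2 genes they belong to (*DST* and *MACF1*) were left out.

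Counts were tested in R 4.3.3 with edgeR 4.0.16 (TMM factors, filterByExpr, quasi-likelihood test of genotype without covariates), which tested 17025 genes with a biological coefficient of variation of 0.17 and 3.24 prior degrees of freedom. Benjamini-Hochberg adjustment ran over all of them at 0.05. CPM used TMM-scaled totals, log2 CPM a prior count of 2, and intervals a t quantile with 7.24 degrees of freedom. The procedure was tested on simulated data. At 29958657 to 38541392 counts per library, replicates of a group differed by more than sampling noise (chi-square per degree of freedom 21.9 to 52), so none was treated as a second deposit of another. That each library is a separate embryo comes from the study.

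The members and lists were chosen with earlier results of these data known. Named members, per subunit, were the 5 with the smallest p, the 3 with the largest fold in each direction, the 3 highest and 2 lowest per kilobase, those dropped by the filter, on the scaffold of *TYR* or with a second copy by name, and those of well known role, and genes of other lists came from those called and the 2 per list with the smallest p. *MRPL35*, *MRPL37*, *MRPL45*, *MRPL46*, *MRPL48* and *MRPS11*, and *METTL17*, *DHX30*, *GADD45GIP1* and *CHCHD1* of the other lists, were named after their values were seen. A newer assembly (ASM5975653v1, Tessera) served only for names and chromosomes, and 77 of the 79 members were found in its annotation by symbol or identifier. A member not found there was counted on chromosome 4 if over 90% of the found genes of its scaffold lay there. Other genes were placed by their own entry alone.

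Alternatives were DESeq2 1.42.0 (its size factors, and its Wald test), limma 3.58.1 (voom), no filter, ribosomal RNA genes left out, each library left out, a replicate block and the first principal component as covariate. After the data were seen, DESeq2 without hypomelanistic 1 and the members without those on chromosome 4 were added. Promoter sequences were not used here.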

Additional observations from a re-analysis of the deposited data

How the results depend on the processing

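No mitochondrial ribosomal protein gene was called under any of the 14 alternatives, with the lowest adjusted p at 0.689 among the members compared. Leaving out 1 library at a time gave medians from 0.02 to 0.05 for the large and from -0.04 to 0.03 for the small subunit. Leaving out the members on chromosome 4 gave 0.02 and -0.01. The count over all genes was less stable. It was 4 in edgeR, 85 in DESeq2, 102 in DESeq2 without hypomelanistic 1, 2 to 10 with 1 library left out (2 without wild-type 2 or wild-type 3, 10 without hypomelanistic 1), and 1 with the replicate number as a block. Over all tested genes, deviations from the group means of libraries with the same number had correlations of -0.084, 0.113 and -0.006. Whether such libraries shared a batch that acted on part of the genes was not tested. The replicate block called 0 members.

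Only the 37 tested members named by rule were compared one by one with their alternatives. Of 518 such comparisons, 496 kept the sign or stood at 0.00, and 22, in 10 of 37 members, turned it, none of them past the threshold. Members outside these 37 were not counted, and some of them also turned without hypomelanistic 1, such as *MRPL45* (0.33 to -0.07). With the first principal component as a covariate, the log2 fold change was 0.04 for *MRPL17*, -0.06 for *MRPL3-like* (LOC117656085), -0.06 for *MRPL32-like* (LOC117665000) and -0.09 for *MRPL3-like* (LOC132709585). In DESeq2 without hypomelanistic 1 these were 0.05, -0.08, -0.06 and -0.12. With 1 library left out they ran from -0.11 to 0.05, from -0.08 to 0.44, from -0.07 to 0.49 and from -0.12 to 0.37. The same ranges were -0.45 to 0.08 for *MRPL3-like* (LOC132710825), -0.05 to 0.04 for *MRPS27*, -0.08 to 0.12 for *MRPL12*, -0.01 to 0.16 for *MRPL11*, -0.16 to 0.01 for *MRPL44* and -0.02 to 0.08 for *MRPS16*. The cause of these turns was not tested beyond the libraries left out. With 3 embryos a group, the 95% interval of a member reached a median of 0.25 to either side on the log2 scale, before any adjustment, so smaller differences could not be resolved for most members.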
